A study of Mus musculus with 11 samples.

Results

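The Th2 genes Gata3, Il4, Il5, Il13, Il1rl1 and Ptgdr2 were followed in RNA sequencing of renal CD4+ T cells after ischemia–reperfusion injury (IRI). They were chosen by name, as a transcription factor, 3 cytokines and a pair of receptors that are commonly used to recognize T helper 2 (Th2) cells, and all 6 were found by symbol among the 35814 gene symbols of the count table. The 11 libraries, each given as a separate biological replicate, were labelled CD4cre (3 libraries), CD4IKK1Δ (5) and CD4NIKΔ (3). All mice were males of 8 to 12 weeks on the C57BL/6 background and were sacrificed on day 2 after clamping of both renal pedicles for 45 min. All 3 genotypes carry a Cre recombinase driven by the CD4 promoter, which the labels of the CD4cre controls give as WT. Mice labelled CD4IKK1Δ also carry floxed Chuk, the gene of IκB kinase 1 (IKK1), and mice labelled CD4NIKΔ carry floxed Map3k14, the gene of the NFκB-inducing kinase (NIK). The comparisons ask how the loss of each kinase of the non-canonical NFκB pathway bears on these genes in T cells of the injured kidney.

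Th2 cells are the CD4+ T cells of type 2 immunity. The transcription factor GATA3 directs their differentiation downstream of the IL-4 receptor and STAT6, and opens the locus of the cytokines IL-4, IL-5 and IL-13. The receptors ST2 (encoded by Il1rl1), which binds the alarmin IL-33, and CRTH2 (encoded by Ptgdr2), which binds prostaglandin D2, are found on Th2 cells but also on regulatory T cells (ST2), innate lymphoid cells, mast cells, basophils and eosinophils.

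The libraries differed widely in the T cell transcripts they held. Their estimated counts summed to between 15751632 and 25737046, so that 3 counts, used here as the counting floor, were worth between 0.115 and 0.211 CPM (counts scaled by library size and TMM factor). Throughout, values are listed by rising replicate number. For the constant regions of the T cell receptor (the sum of Trac, Trbc1 and Trbc2), CD4cre libraries held 35820, 22741 and 12558 counts. Libraries labelled CD4IKK1Δ held 41, 868, 11413, 5277 and 5644 and those labelled CD4NIKΔ 60124, 111648 and 90324 counts, so that replicates 1 and 2 of CD4IKK1Δ stood apart as libraries with few T cell transcripts. Over all 16 T cell markers, the summed level ran from 1657 to 3141 CPM, from 17.3 to 1443 CPM and from 8627 to 12635 CPM in the 3 groups in the same order, and that of 8 neuronal markers, which should be absent from T cells, ran from 3834 to 4465 CPM, from 4913 to 5823 CPM and from 1218 to 2698 CPM. That of 9 myeloid markers ran from 373 to 1639 CPM, from 85.3 to 208 CPM and from 570 to 892 CPM. The targeted genes did not separate the groups as labelled: Chuk had 432, 683 and 325 counts in CD4cre libraries against 258, 406, 394, 307 and 588 counts in those labelled CD4IKK1Δ, and Map3k14 had 506, 403 and 294 counts in CD4cre libraries against 232, 626 and 337 counts in those labelled CD4NIKΔ. Map3k14 was lowest in the libraries labelled CD4IKK1Δ, with 29, 94, 109, 186 and 170 counts, none of which reached those of the other groups (log2 fold change −1.58 against CD4cre, FDR 0.148 with edgeR and adjusted p = 0.0236 with DESeq2, and −1.91 against CD4NIKΔ, FDR 0.00418 with edgeR). These values cover the whole gene and cannot tell whether the floxed exons were missing, and every direction given below rests on the labels. In bulk libraries of this kind, fewer cells of a type and less RNA per cell cannot be told apart.

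Il4, Il13 and Il5 lie together on chromosome 11, where Il4 (53493809 to 53509496, minus strand of GRCm39) is followed after 12654 bases by Il13 (53522151 to 53525529, minus strand), and Il13 is separated by 86091 bases with the DNA repair gene Rad50 in between from Il5 (53611621 to 53615933, plus strand). Gata3 lies on chromosome 2 (9861889 to 9894845, minus strand), Il1rl1 on chromosome 1 (40468730 to 40504575, plus strand) and Ptgdr2 on chromosome 19 (10914524 to 10919875, plus strand). The promoters of the 3 cytokine genes are shown because the genes share a locus and a regulator, GATA3, while their counts in these libraries were far apart. Each line gives the 250 bases before the RefSeq start site, 5′ to 3′ on the strand of the gene, taken from the RefSeq promoter table (GRCm38.p6) and placed on GRCm39 by exact match at chr11:53509493-53509742 for Il4 (the farther upstream of its 2 listed windows), chr11:53525530-53525779 for Il13 and chr11:53611371-53611620 for Il5. Capitals mark the letters AGATAA (also with a last letter G, a first letter T or both), which GATA factors bind, and GGAAAA, the core bound by NFAT, on either strand.
Il4: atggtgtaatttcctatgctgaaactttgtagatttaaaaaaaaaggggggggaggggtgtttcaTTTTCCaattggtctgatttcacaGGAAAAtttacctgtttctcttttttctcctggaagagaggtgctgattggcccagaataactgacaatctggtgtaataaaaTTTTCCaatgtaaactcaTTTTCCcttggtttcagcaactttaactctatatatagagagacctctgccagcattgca
Il13: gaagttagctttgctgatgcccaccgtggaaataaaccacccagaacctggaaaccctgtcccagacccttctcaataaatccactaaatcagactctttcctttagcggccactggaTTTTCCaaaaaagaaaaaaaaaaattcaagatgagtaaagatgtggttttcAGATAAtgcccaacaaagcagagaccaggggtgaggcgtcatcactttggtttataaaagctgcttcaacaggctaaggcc
Il5: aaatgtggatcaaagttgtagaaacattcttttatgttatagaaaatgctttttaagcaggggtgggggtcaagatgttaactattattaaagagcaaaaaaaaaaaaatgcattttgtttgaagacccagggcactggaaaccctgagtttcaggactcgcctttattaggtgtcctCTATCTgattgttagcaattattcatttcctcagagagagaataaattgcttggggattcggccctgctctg
In the windows of 300 bases that also hold the 50 bases from the start site onward, each of the 3 genes had 1 GATA match. In Il13 it began 81 and in Il5 72 bases before the start site, and in Il4 it was a TGATAA that began at base 15 after it and is not printed. GGAAAA was found 4 times for Il4, 1 time for Il13 and 0 times for Il5, with no overlap with a GATA match. Among all 32851 promoter windows of that length, 29.8% held a GATA match and 23.4% a GGAAAA core, so that such letters are common and mark no binding site by themselves.

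Of the 6 genes, 3 were near the counting floor, defined as 3 counts or fewer in at least 6 of the 11 libraries. Il13 was at or under 3 counts in 10 libraries, Ptgdr2 in 9 and Il5 in 7. Il1rl1 was at or under 3 counts in 1 library, and Gata3 and Il4 in 0 libraries. Over all libraries, Gata3 had 10455 counts, Il4 5358 and Il1rl1 343, against 52 for Il5, 42 for Ptgdr2 and 20 for Il13. Per length, which allows genes to be compared, the level of Il4 was the highest in each group, with 46.9 ± 28.0 CPM per kb (SD, n = 3) in CD4cre, 12.1 ± 8.48 CPM per kb (SD, n = 5) in CD4IKK1Δ and 95.6 ± 83.2 CPM per kb (SD, n = 3) in CD4NIKΔ libraries. Gata3 came next with 11.0 ± 5.18, 2.60 ± 2.34 and 42.0 ± 10.3 CPM per kb in the same groups, and the ranges of Il4 and Gata3 overlapped in the libraries labelled CD4IKK1Δ and CD4NIKΔ. The other 4 genes had mean levels of at most 0.641 CPM per kb, and their order did not exceed the spread between libraries.

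**Figure D1:**
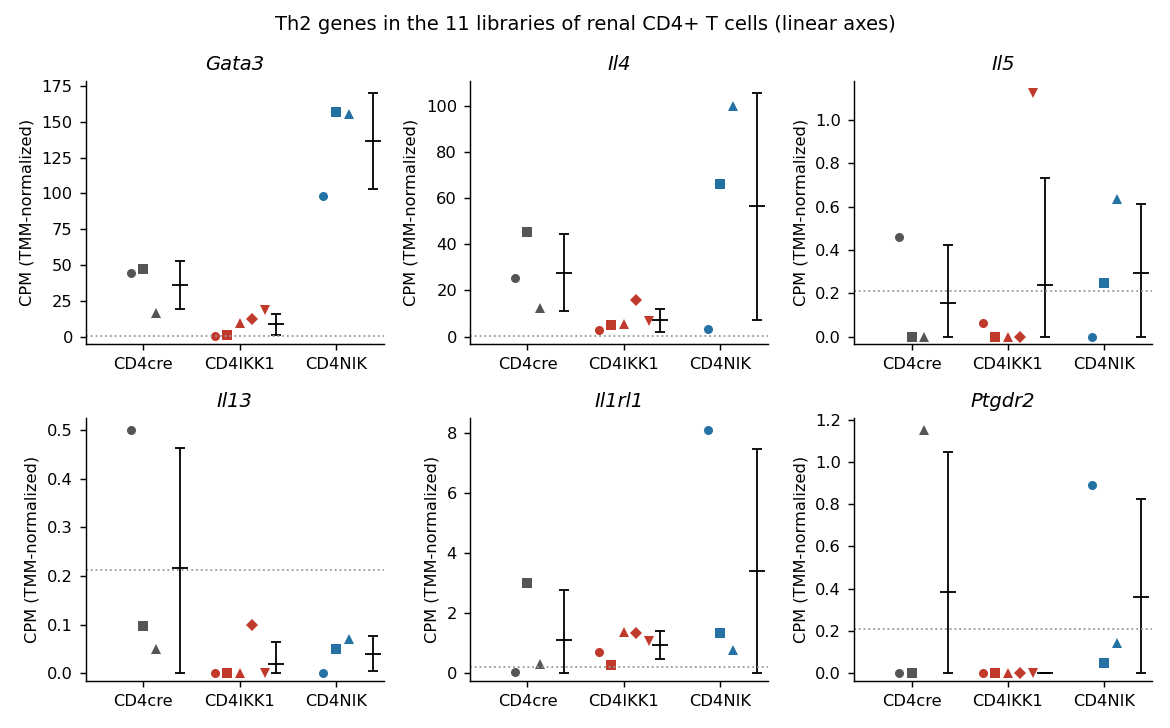
Levels of the 6 Th2 genes in CPM on linear axes, with 1 point per library, a symbol per replicate number (circle 1, square 2, upward triangle 3, diamond 4, downward triangle 5) and the mean ± SD of each group beside the points (bars end at 0). The dotted line is the highest floor of 3 counts (0.211 CPM), under or near which most libraries lie for Il5, Il13 and Ptgdr2, while Gata3 lies above it in all 11.

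Gata3, the lineage factor of Th2 cells, was the gene with the most counts. CD4cre libraries held 1150, 966 and 329 counts of it (35.9 ± 16.9 CPM, SD, n = 3). In libraries labelled CD4IKK1Δ it had 11, 25, 162, 250 and 415 counts (8.45 ± 7.61 CPM, SD, n = 5), and in those labelled CD4NIKΔ 1758, 3188 and 2201 counts (137 ± 33.4 CPM, SD, n = 3). All libraries labelled CD4NIKΔ were above all others, and replicate 5 of CD4IKK1Δ (18.7 CPM) reached above the lowest CD4cre library (16.5 CPM). GATA3 is also used by other T cells, such as regulatory T cells, and by innate lymphoid cells, so that its transcript alone does not mark Th2 cells. Exons of Gata3 share 303 bases with Gm13256, a non-coding RNA on the opposite strand, 195 of them in the canonical transcript, and 77 bases with the non-coding Gata3un on the same strand, and reads of these stretches cannot be told apart.

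Il4, which encodes the cytokine that starts Th2 differentiation, was found in every library. CD4cre libraries held 657, 931 and 249 counts (27.7 ± 16.5 CPM, SD, n = 3), and 45, 93, 97, 317 and 149 were counted in those labelled CD4IKK1Δ (7.14 ± 5.00 CPM, SD, n = 5). In libraries labelled CD4NIKΔ it had 57, 1347 and 1416 counts (56.4 ± 49.1 CPM, SD, n = 3). Replicate 1 of CD4NIKΔ (3.18 CPM) thus lay below every CD4cre library and among those labelled CD4IKK1Δ, although its 60124 T cell receptor counts and its Gata3 level were high. The ratio of Il4 to Gata3 counts was 0.0324 in this library, between 0.359 and 1.27 in 8 of the other libraries, and 4.09 and 3.72 in replicates 1 and 2 of CD4IKK1Δ, the libraries with few T cell transcripts. Exons of Il4 in the GENCODE set share 179 bases with exons of Kif3a on the opposite strand, though none of the canonical transcript do. Kif3a, a kinesin gene, had 253 ± 18.3, 310 ± 13.8 and 119 ± 47.3 CPM in the 3 groups, highest where Il4 was lowest, and since use of strand in counting is not given in the sources used here, reads of that stretch cannot be told apart.

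Il5, which encodes the growth factor of eosinophils, was counted 12, 0 and 0 times in CD4cre libraries, 1, 0, 0, 0 and 25 times in those labelled CD4IKK1Δ and 0, 5 and 9 times in those labelled CD4NIKΔ. The highest value was thus that of a single library, replicate 5 of CD4IKK1Δ (1.12 CPM), and the groups overlapped. Il13, which encodes the cytokine that acts on epithelium and drives fibrosis, was counted 13, 2 and 1 times in CD4cre libraries, 0, 0, 0, 2 and 0 times in those labelled CD4IKK1Δ and 0, 1 and 1 times in those labelled CD4NIKΔ. It passed the floor in 1 library, replicate 1 of CD4cre (0.50 CPM). A difference between the genotypes was not detectable at this depth for either cytokine. In Il5, 417 exon bases are shared with Gm12214, a non-coding RNA on the opposite strand, and reads of that stretch cannot be told apart.

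Il1rl1, the gene of the IL-33 receptor ST2, reached 1, 62 and 6 counts in CD4cre libraries (1.12 ± 1.65 CPM, SD, n = 3). It had 11, 5, 24, 27 and 24 counts in those labelled CD4IKK1Δ (0.949 ± 0.467 CPM, SD, n = 5), and 145, 27 and 11 counts in those labelled CD4NIKΔ (3.40 ± 4.07 CPM, SD, n = 3). The groups overlapped, and the mean of CD4NIKΔ was set by replicate 1 (8.09 CPM), the same library in which Il4 was low. Ptgdr2, the gene of CRTH2, reached 0, 0 and 23 counts in CD4cre libraries, 0 in all 5 libraries labelled CD4IKK1Δ, and 16, 1 and 2 counts in those labelled CD4NIKΔ. A count of 0 allows up to 3 counts per library, or 0.161 CPM on average in that group. A single library in each of the other groups carried nearly all counts, and Ptgdr2 shares 1031 exon bases with Ccdc86 on the opposite strand, which again cannot be told apart.

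CD4cre libraries were first compared with those labelled CD4IKK1Δ. With edgeR's quasi-likelihood test, where a gene was called if its FDR was below 0.05 and its difference above 2-fold, 0 of the 3 Th2 genes that passed the filter on low counts were called, against 0% of all 15653 genes tested. The smallest FDR of all genes was 0.0543, and 2592 genes had an unadjusted p under 0.05. Il4 gave a log2 fold change of −1.95 (SE 0.55, FDR 0.138 with edgeR), with the CD4IKK1Δ mean lower, and was the Th2 gene closest to the threshold. Gata3 gave −2.08 (SE 0.92, FDR 0.305 with edgeR) and Il1rl1 −0.23 (SE 1.22, FDR 0.963 with edgeR), which was 2.47 without replicate 2 of CD4cre. DESeq2, the tool named for this step in the study's methods, gave the same size for Il4 (log2 fold change −1.96, adjusted p = 0.0128 with DESeq2) and called it, in a comparison in which it called 4.30% of 10764 genes as lower. It did not call Gata3 (adjusted p = 0.188 with DESeq2), and it gave no adjusted p for Il1rl1. Without replicates 1 and 2 of CD4IKK1Δ, an alternative chosen after seeing the data, edgeR gave −1.57 for Il4 (FDR 0.284) and −1.42 for Gata3 (FDR 0.234). The 16 T cell markers, all of which had lower values in CD4IKK1Δ libraries with 0 called, had a median log2 fold change of −2.04 against 0.02 for all genes tested. The 7 myeloid markers tested had a median of −2.82, with 6 lower values, 0 called by edgeR and 5 called as lower by DESeq2. All 4 proximal kidney tubule markers tested had lower values (median −1.69), with a summed level of 12.4 to 18.3 CPM in CD4cre and 2.43 to 7.15 CPM in CD4IKK1Δ libraries. Of 7 distal tubule markers tested, 6 had lower values and 1 a higher value (median −2.38), and edgeR called 0 of either tubule list. The part of any list in the values of Il4 and Gata3 was not tested.

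Libraries labelled CD4NIKΔ were then compared with the same CD4cre libraries, so that the comparisons share their controls. Gata3 was higher in CD4NIKΔ libraries with a log2 fold change of 1.91 (SE 0.39, FDR 0.0173 with edgeR), and the groups did not overlap. It was 1 of 3 Th2 genes tested that passed, in a comparison in which 17.4% of 15209 genes passed in either direction and 10.4% as higher. That background moved with single libraries, from 2649 genes called to 674 without replicate 3 of CD4NIKΔ, 918 without its replicate 2, and 1001 and 859 without replicates 2 and 3 of CD4cre. The call of Gata3 was lost without replicate 2 of CD4NIKΔ (FDR 0.0647 with edgeR), without replicate 3 (FDR 0.0649) and with all 11 libraries in the fit (FDR 0.210), with log2 fold changes of 1.83, 1.83 and 1.92. Il4 gave 1.00 (SE 0.93, FDR 0.467 with edgeR) and Il1rl1 1.59 (SE 1.41, FDR 0.445 with edgeR), both with overlapping groups. Without the low replicate 1 of CD4NIKΔ, Il4 gave 1.59 with an FDR of 0.0514 with edgeR, and Il1rl1 gave −0.08 (FDR 0.977). Other libraries moved the sizes as well, with Il4 at 0.33 without replicate 3 of CD4NIKΔ and at 1.59 without replicate 2 of CD4cre, and Il1rl1 at 4.31 without the latter. Of the 16 T cell markers, 13 rose, with a median of 2.06. Scaling libraries to these markers moved the median of all genes to −2.07 and placed Gata3 at −0.11 (FDR 0.814 with edgeR), or 1.96 relative to that median.

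The largest number of calls was found between libraries labelled CD4IKK1Δ and CD4NIKΔ. Gata3 was lower in CD4IKK1Δ libraries with a log2 fold change of −4.00 (SE 0.87, FDR 0.00473 with edgeR), without overlap, and Il4 was lower with −2.98 (SE 0.86, FDR 0.0173 with edgeR), with replicate 1 of CD4NIKΔ inside the range of CD4IKK1Δ. These were 2 of 3 Th2 genes tested, in a comparison in which 33.3% of 16546 genes passed in either direction and 18.5% as lower. Il1rl1 gave −1.82 (SE 1.12, FDR 0.216 with edgeR), and −0.15 without replicate 1 of CD4NIKΔ. Without replicates 1 and 2 of CD4IKK1Δ, Gata3 gave −3.34 (FDR 0.000579 with edgeR), whereas Il4 gave −2.58 and missed the threshold (FDR 0.0571). Il4 also missed it without replicate 3 of CD4NIKΔ (log2 fold change −2.28, FDR 0.0845 with edgeR), and was not called with the replicate number as a block in the fit. The T cell markers moved alongside, with all 16 lower in value and 15 called lower in CD4IKK1Δ libraries and a median of −4.06. Of the other marker lists, 4 of 7 myeloid markers (median −1.96), 2 of 5 of the proximal kidney tubule (−4.04, summed level 2.43 to 7.15 CPM in CD4IKK1Δ and 7.76 to 65.3 CPM in CD4NIKΔ libraries) and 2 of 8 of the distal tubule (−2.38, with 1 called higher) were also called lower, and the part of any list in the values of Gata3 and Il4 was not tested. Scaling to the T cell markers moved the median of all genes to 6.89 and placed Gata3 at 0.56 (FDR 0.733 with edgeR) and Il4 at 3.19 (FDR 0.0755 with edgeR), or −6.32 and −3.70 relative to that median.

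**Figure D2:**
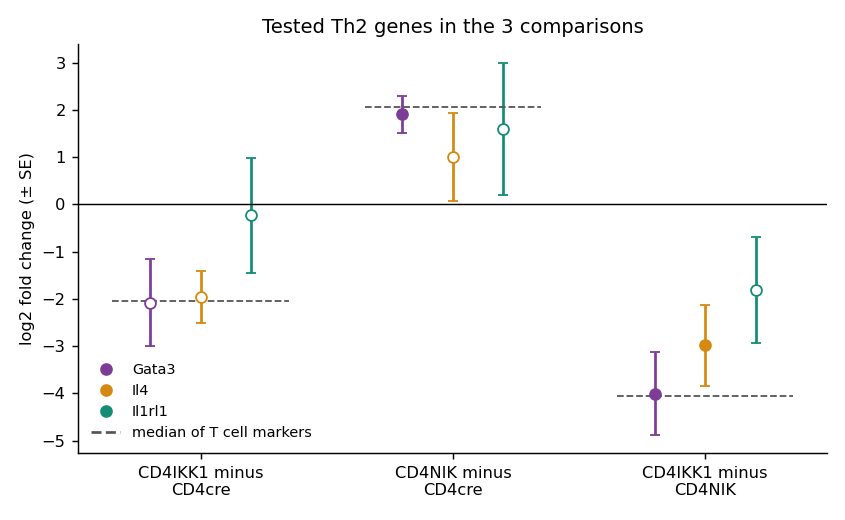
Log2 fold changes (± SE from edgeR) of the 3 Th2 genes that passed the filter on low counts, in the 3 comparisons, with filled points for called genes and dashed lines at the median of the 16 T cell markers. Gata3 lies near the dashed line in each comparison (−2.08, 1.91 and −4.00 against −2.04, 2.06 and −4.06).

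The Th2 genes were therefore also set against the T cell receptor counts of the same library. Gata3 had between 262 and 425 counts per 10000 T cell receptor counts in CD4cre libraries, between 244 and 292 in those labelled CD4NIKΔ, and 2683, 288, 142, 474 and 735 in those labelled CD4IKK1Δ. In the libraries labelled CD4NIKΔ, the ratio of Gata3 was thus inside or just below the range of the CD4cre libraries, with a mean log2 difference of −0.27 (exact two-sided permutation p = 0.3, adjusted p = 0.54 over 9 tests). Between libraries labelled CD4IKK1Δ and CD4cre libraries, the difference for Gata3 was 0.68 (exact two-sided permutation p = 0.571, adjusted p = 0.643), and it was 0.16 without replicates 1 and 2 of CD4IKK1Δ. The value of replicate 1 rests on only 41 T cell receptor counts.

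Il4 had 183, 409 and 198 counts per 10000 T cell receptor counts in the CD4cre libraries and 9.48, 121 and 157 in those labelled CD4NIKΔ, which did not overlap. The mean log2 difference was −2.12, with the smallest p that 3 against 3 libraries allow (exact two-sided permutation p = 0.1, adjusted p = 0.225), and it was −0.84 without replicate 1 of CD4NIKΔ. In libraries labelled CD4IKK1Δ, Il4 had 10976, 1071, 85.0, 601 and 264 counts per 10000, a difference of 1.49 from CD4cre libraries (exact two-sided permutation p = 0.429, adjusted p = 0.551) that was −0.04 without replicates 1 and 2. In replicate 1 of CD4IKK1Δ, 45 Il4 counts stood beside 41 T cell receptor counts. Against libraries labelled CD4NIKΔ, the difference for Il4 was 3.62 (exact two-sided permutation p = 0.0893, adjusted p = 0.225), and 2.33 to 4.37 when each library was left out.

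Il1rl1 had 0.279, 27.3 and 4.78 counts per 10000 T cell receptor counts in the CD4cre libraries and 24.1, 2.42 and 1.22 in those labelled CD4NIKΔ. It had 2683, 57.6, 21.0, 51.2 and 42.5 in libraries labelled CD4IKK1Δ, of which 4 of 5 were above every library of the other groups. The value of replicate 1 is 11 counts beside 41 T cell receptor counts. In CPM, the mean of Il1rl1 was not higher in CD4IKK1Δ libraries (0.949, against 1.12 in CD4cre and 3.40 in CD4NIKΔ). The T cell receptor counts, the denominator, were lowest in that group. The log2 differences were 4.63 against CD4cre and 4.52 against CD4NIKΔ libraries (exact two-sided permutation p = 0.0357 for each, adjusted p = 0.161). They were 3.22 and 3.11 without replicates 1 and 2, and 3.02 to 6.04 and 3.31 to 5.77 when each library was left out. Between libraries labelled CD4NIKΔ and CD4cre libraries, it was 0.12 (exact two-sided permutation p = 1). Of the 9 tests, 0 passed an adjusted p under 0.05, which the design made hard to reach: the 3 tests of 3 against 3 libraries could not pass it, and a single test of 3 against 5 at its smallest p of 0.0179 would have had an adjusted p of 0.161. Which cells carried Il1rl1 was not tested.

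**Figure D3:**
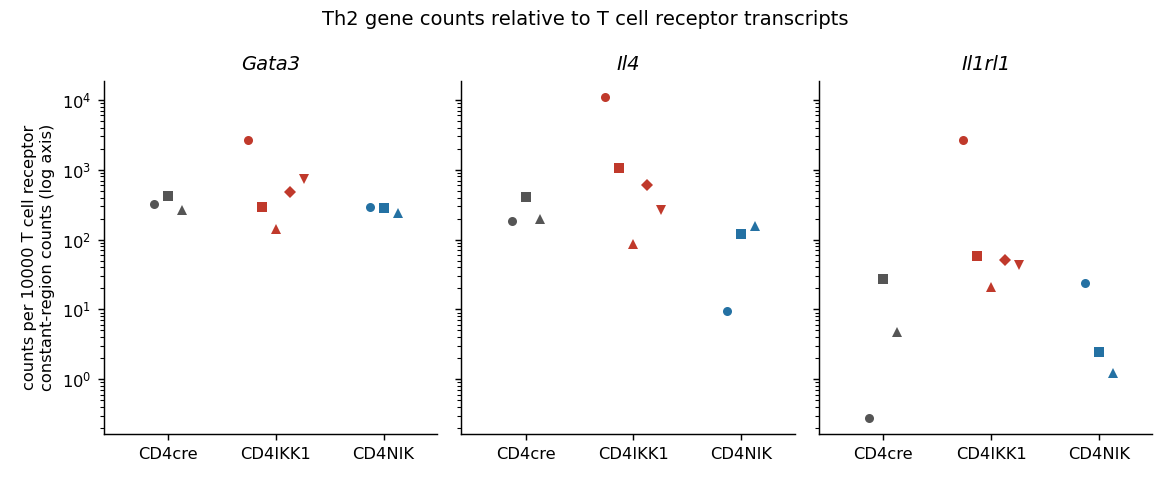
Counts of Gata3, Il4 and Il1rl1 per 10000 T cell receptor constant-region counts on a log axis, with 1 point per library and a symbol per replicate number (circle 1, square 2, upward triangle 3, diamond 4, downward triangle 5). Gata3 lies between 244 and 425 in the CD4cre and CD4NIKΔ libraries, while replicate 1 of CD4IKK1Δ, with 41 T cell receptor counts, is the highest point for each gene.

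The 3 Th2 genes with enough counts varied differently among themselves over the 11 libraries. As a description without a test, Pearson's r of log2 CPM was 0.69 between Gata3 and Il4, 0.33 between Gata3 and Il1rl1 and −0.11 between Il4 and Il1rl1, all of which share library depth and T cell content. Among 16545 other genes, those most like Gata3 were Gimap3 (r = 0.99), Ms4a6b (0.99) and Gimap4 (0.99), of which the Gimap genes encode GTPases of lymphocytes. Those most like Il4 were Lyst (0.94), Hsph1 (0.93) and Med23 (0.92). Among those most like Il1rl1 were Has1 (0.85) and Olfr67 (0.84). Genes with the highest r out of so many are extreme by choice.

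Genes that act around the 6 were given from lists of the signalling, transcription factors and effectors of Th2 cells. Further lists held genes placed under restraint of Th2 cells or the Th1 program, and the neighbours of the cytokine and Il1rl1 loci. Beside the count of each list, the share of all genes called in the same direction is given in parentheses. Of the signalling genes, which carry IL-4, IL-2 and related signals, 0 of 14 tested were called by edgeR between CD4IKK1Δ and CD4cre libraries (7 at an unadjusted p under 0.05), with a median log2 fold change of −1.41 and with 13 of 14 values lower. DESeq2 called 3 of 13 as lower (4.30% of all genes), Il2ra, Stat5a and Stat5b. The lowest were Il2ra, the IL-2 receptor α chain (−3.64, FDR 0.0551 with edgeR), and Il7r (−2.69), while Il1rap, the partner chain of ST2, gave 0.37. In CD4NIKΔ against CD4cre libraries, 6 of 15 rose (10.4% of all genes) and 0 fell, namely the common γ chain gene Il2rg (3.01), Myd88, which transmits IL-33 signals (1.92), the kinase genes Jak3 (1.91) and Jak1 (1.59), and the IL-2 receptor genes Il2rb (1.69) and Il2ra (1.33). Between CD4IKK1Δ and CD4NIKΔ libraries, 12 of 15 were lower in CD4IKK1Δ (18.5% of all genes) and 0 higher, among them Il4ra, the IL-4 receptor chain (−2.87), and Stat6, its signal transducer (−4.68). Stat6 had 0 counts in 4 libraries labelled CD4IKK1Δ and 7 in replicate 4, without which it gave −8.27, so that the size of its difference is uncertain. The others were Il2rg (−5.09), Il2ra (−5.00), Il2rb (−4.23), Il7r (−3.90), Myd88 (−3.49), Stat5a (−3.37), Jak3 (−2.92), Jak1 (−2.71), Stat5b (−2.10) and Tyk2 (−1.78). Stat6 and Tyk2 missed the threshold without replicates 1 and 2 of CD4IKK1Δ (FDR 0.0641 and 0.0690 with edgeR), and Il4ra missed it without replicate 2 or 3 of CD4IKK1Δ or any 1 of the 3 libraries of CD4NIKΔ (FDR 0.0533 to 0.0947).

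Of the transcription factors that act with GATA3, 0 of 13 were called by edgeR between CD4IKK1Δ and CD4cre libraries (5 at an unadjusted p under 0.05), with a median of −1.26. DESeq2 called 4 of 11 as lower (4.30% of all genes), Junb, Maf, Nfil3 and Satb1. The lowest values were those of the AP-1 factors Junb (−2.99) and Batf (−2.69), and the highest those of Irf4 (0.93) and Bhlhe41 (0.02), which were 3.73 and 0.87 without replicate 1 of CD4cre. Against CD4cre, 5 of 14 rose in CD4NIKΔ libraries (10.4% of all genes) and 0 fell: Tcf7 (2.55), Nfatc1 (1.81), Maf, an activator of Il4 (1.63), Batf (1.45) and Rbpj, the effector of Notch (1.24). Compared with CD4NIKΔ, 12 of 15 were lower in CD4IKK1Δ libraries (18.5% of all genes), from Gfi1 (−8.43), which had 0 counts in 3 CD4IKK1Δ libraries and at most 5 in the others, through Tcf7 (−4.73), Batf (−4.16), Junb (−3.89), Nfatc1 (−3.76), Ikzf1 (−3.36), Maf (−2.88), Nfil3 (−2.66), Satb1 (−2.13), Notch1 (−2.06) and Rbpj (−1.93) to Nfatc2 (−1.71).

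Of the effectors, Il9, Il3 and Il31 were at or under the floor in all libraries. Between CD4IKK1Δ and CD4cre libraries edgeR called 0 of 9 (1 at an unadjusted p under 0.05) and DESeq2 0 of 5, with a median of −1.80 in edgeR and the lowest values for the chemokine receptor genes Ccr8 (−2.83) and Cxcr6 (−2.81). In CD4NIKΔ libraries 5 of 11 rose against CD4cre (10.4% of all genes) and 0 fell, with Cxcr6 (3.71), Il9r (2.84), Ccr4 (2.54), Areg, which encodes amphiregulin (2.54), and Ccr8 (1.87). Compared with CD4NIKΔ, 6 of 11 were lower in CD4IKK1Δ libraries (18.5% of all genes), namely Cxcr6 (−6.52), Ccr8 (−4.72), Ccr4 (−4.36), Il10 (−4.06), Il9r (−3.12) and Ccr3, the eotaxin receptor gene, which had 0 counts in all 5 CD4IKK1Δ libraries and was at least 7.45-fold lower against a floor of 3 counts per library. The median was −3.70, or −3.12 with Ccr3 at this bound. Cxcr6, with a mean of 1077 CPM in CD4NIKΔ libraries where the list summed to 1055 to 1710 CPM, is not particular to Th2 cells. Ccr8, Ccr4, Il10 and Areg are also expressed by regulatory T cells. Of 7 regulatory T cell markers, 4 rose in CD4NIKΔ against CD4cre libraries (10.4% of all genes), and 6 were lower in CD4IKK1Δ than in CD4NIKΔ libraries (18.5% of all genes), and the part of these cells was not tested.

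Genes listed under restraint or the Th1 program had medians on the same side of 0 as those of Th2 cells in each comparison. Among them is Socs3, an inhibitor of cytokine signals that is not particular to restraint of Th2 cells. Between CD4IKK1Δ and CD4cre libraries edgeR called 0 of 12 (4 at an unadjusted p under 0.05), with a median of −2.26, and gave −3.60 (FDR 0.201 with edgeR) for Runx3, which had at most 3 counts in a CD4IKK1Δ library, −3.04 for Ifng and 0.33 for Socs5. DESeq2 called 3 of 9 as lower (4.30% of all genes), Ifngr1, Socs1 and Tbx21. Between CD4NIKΔ and CD4cre libraries 4 of 13 rose (10.4% of all genes), Stat4 (2.64), the Th1 factor gene Tbx21 (2.37), Ifng (2.15) and Ifngr1 (1.63), and Socs5, an inhibitor of IL-4 signals, fell (−1.03, with 6.99% of all genes called lower). Between CD4IKK1Δ and CD4NIKΔ libraries 9 of 13 were lower in CD4IKK1Δ (18.5% of all genes) and Socs5 was higher (1.35, with 14.8% of all genes called higher). The lower genes were Ifng (−5.20), Eomes (−5.00), Stat4 (−4.72), Tbx21 (−4.67), Ifngr1 (−4.12), Socs1 (−3.19), Socs3 (−3.10), Runx1 (−3.06) and Runx3 (−5.02). Eomes and Runx3 had at most 5 and 3 counts in a CD4IKK1Δ library, a mean under the floor.

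The neighbours of the cytokine genes were called in both directions. Between CD4IKK1Δ and CD4cre libraries edgeR called 0 of 8 (3 at an unadjusted p under 0.05) and DESeq2 0 of 7, with a median of 0.05 in edgeR and values from −2.09 for Irf1, an interferon-response factor, and −0.59 for the carnitine transporter gene Slc22a5 to 0.35 for Shroom1 and 0.41 for Septin8. Between CD4NIKΔ and CD4cre libraries Rad50, which lies between Il13 and Il5, rose (2.06) as 1 of 8 (10.4% of all genes), and Kif3a, next to Il4, fell (−1.11) as 1 of 8 (6.99% of all genes). Between CD4IKK1Δ and CD4NIKΔ libraries Irf1 (−4.40) and Rad50 (−2.54) were lower in CD4IKK1Δ, 2 of 8 (18.5% of all genes), and Septin8 (1.39), Kif3a (1.39) and Slc22a4 (1.33) were higher, 3 of 8 (14.8% of all genes). Around Il1rl1, where receptors of the IL-1 family are clustered, 0 of 6 neighbours were called by edgeR between CD4IKK1Δ and CD4cre libraries (1 at an unadjusted p under 0.05), while DESeq2 called Il18r1 as lower among 3 (4.30% of all genes), with edgeR values from −1.95 for Il18r1 and −1.06 for Il1rl2 to 1.19 for Il1r2 and 1.60 for Il1r1. The adjacent Il18r1, the IL-18 receptor gene, was the single neighbour of 6 called by edgeR, higher in CD4NIKΔ than in CD4cre libraries (2.19, with 10.4% of all genes higher) and lower in CD4IKK1Δ than in CD4NIKΔ libraries (−4.15, with 18.5% of all genes lower).

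Many of these calls rested on single libraries. Of the 24 genes of the 6 lists called between CD4NIKΔ and CD4cre libraries, 10 stayed called without replicate 3 of CD4NIKΔ, 13 without its replicate 2, and 18, 13 and 12 without replicates 1, 2 and 3 of CD4cre. Those called when any 1 of the 6 libraries was left out were Il2rb, Il2rg, Jak3, Ccr8, Cxcr6, Ifngr1, Stat4, Tbx21, Rad50 and Il18r1, and none of the 5 called factors that act with GATA3 was among them. Of the 46 genes called between CD4IKK1Δ and CD4NIKΔ libraries, 36 stayed called without replicate 3 of CD4NIKΔ, 37 without its replicate 2, and at least 43 without any other single library. Over all genes, the number called fell alongside, from 2649 to between 674 and 2489 in the first comparison except without replicate 1 of CD4NIKΔ (3468), and from 5512 to 4116 and 4484 in the second without replicates 3 and 2 of CD4NIKΔ. Single libraries also moved sizes by over 1.5-fold. Between CD4NIKΔ and CD4cre libraries, Tcf7 gave 3.48, Stat4 3.23, Ifng 2.87 and Myd88 2.55 without replicate 1 of CD4cre, and Areg gave 3.52 without its replicate 2. Against CD4NIKΔ, leaving out replicate 3 of CD4IKK1Δ gave −5.15 for Ccr4, −4.80 for Batf, −4.04 for Ikzf1 and −3.59 for Jak3. Without its replicate 5, Gfi1 gave −10.16, Il2rg −5.90 and Stat4 −5.67, and without its replicate 2 Eomes gave −5.75. Without replicate 2 of CD4NIKΔ, Gfi1 gave −7.52, Runx3 −4.35 and Irf1 −3.58. Among genes not called between CD4IKK1Δ and CD4cre libraries, leaving out replicate 1 of CD4cre gave 3.54 for Il1r1, 2.27 for Il1r2, −0.095 for Il1rl2, −0.99 for Irf1, −2.07 for Il7r and −2.31 for Ifng, and leaving out replicate 3 of CD4IKK1Δ gave −3.34 for Batf and 0.34 for Irf4.

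**Figure D4:**
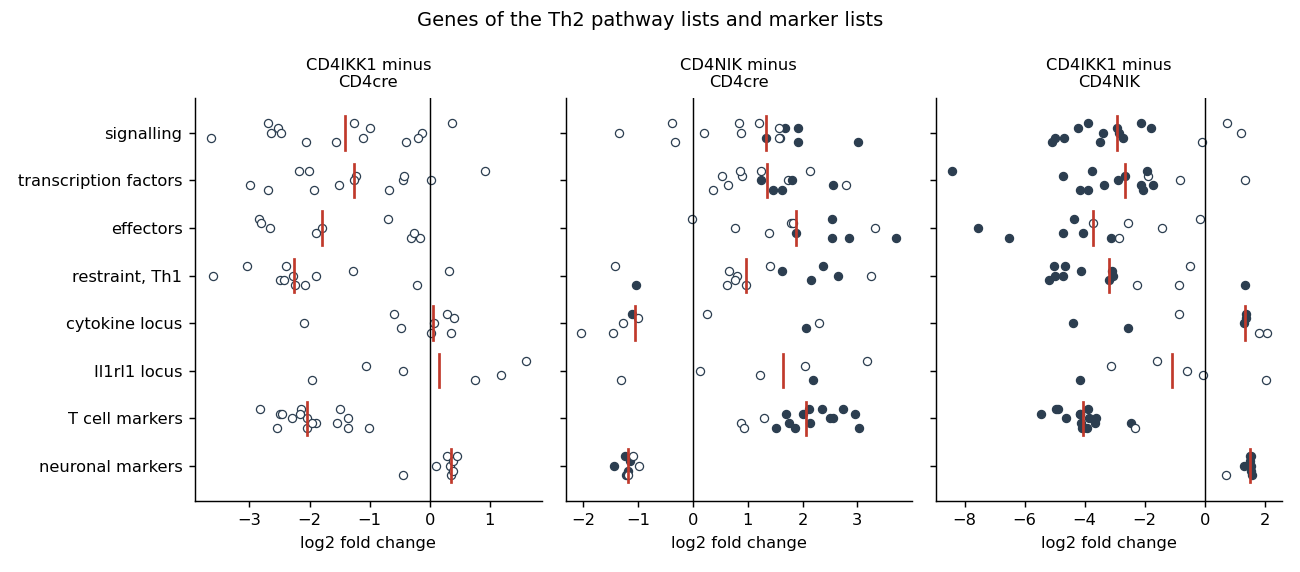
Log2 fold changes of the tested genes of 6 Th2 pathway lists and of the T cell and neuronal marker lists, with 1 point per gene, filled where called by edgeR, and a red line at the median of each list. The lists of signalling, factors, effectors and restraint shift to the side of the T cell markers (medians −2.04, 2.06 and −4.06), while the neuronal markers lie on the other side (0.35, −1.18 and 1.53).

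Mast cells, basophils and eosinophils can also express Il4, Il13, Il1rl1 and Ptgdr2. How far the bead enrichment and FACS of CD4+ T cells removed them was not tested. Of 11 mast cell and basophil markers in the table, Tpsb2, Cma1, Fcer1a and Mcpt8 did not pass the floor in any library. Cpa3, the mast cell carboxypeptidase gene, had at most 3.46 CPM (77 counts), in replicate 5 of CD4IKK1Δ, and a median of 0 in that group. That library also had the most Il5 counts (25), and the part of mast cells in its Il5 value was not tested. The summed level of the 11 markers, most of which came from Kit and Hdc, ran from 12.6 to 16.6 CPM in CD4cre, from 5.13 to 15.8 CPM in CD4IKK1Δ and from 17.6 to 18.1 CPM in CD4NIKΔ libraries. Of 7 eosinophil markers, Siglecf, Prg2 and Ear1 did not pass the floor in any library, and the summed level was at most 3.23 CPM. In CD4cre libraries, Il4 had between 12.5 and 45.3 CPM, Kit 5.81 ± 0.800 CPM and Hdc 7.74 ± 0.727 CPM (SD, n = 3), and the part of these cells in the values of Il4 was not tested.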

How the data were processed

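Renal CD4+ T cells of day 2 after IRI were enriched with magnetic beads and sorted by FACS, and a SMARTer kit amplified their RNA. After trimming (Trimmomatic) and assignment to transcripts (kallisto), the authors deposited a table of estimated counts with 35814 gene symbols and 11 libraries, which is neither normalized nor filtered. The build is GRCm39 in the study's methods and mm10 in the submitters' processing notes, and the annotation and use of strand are not given in the sources used here. In each library, 35.3% to 41.8% of the estimated counts were fractional, and they were rounded. None of the 55 pairs of libraries were identical.

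Genes were filtered by edgeR's filterByExpr, scaled with TMM factors and compared by the robust quasi-likelihood test of edgeR 4.0.16 under R 4.3.3, and FDR (Benjamini-Hochberg) cover all genes tested. The fits against CD4cre held only the groups compared, and the fit of CD4IKK1Δ against CD4NIKΔ held all 11 libraries. SE were taken from the F statistic. Log2 CPM for correlations had a prior count of 2. Ratios to T cell receptor counts had 0.5 added to both terms and were compared by exact two-sided permutation of the libraries for genes with 3 or more counts in at least 6 libraries, adjusted over 9 tests. The smallest p for 3 against 5 libraries is 0.0179 and for 3 against 3 it is 0.1. The reads carry no molecular identifiers, so that a floor of 3 counts speaks of counting error and not of molecules. Levels per kb used the length of the GENCODE canonical transcript. Coordinates are those of GENCODE release M39 on GRCm39, which holds 33508 (93.6%) of the symbols. The edgeR and DESeq2 fits were also run on simulated counts. These had no shared difference in T cell content between libraries, so that their outcome cannot speak for that spread here.

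The 6 genes and the lists were chosen with earlier results of these data known. Of 166 names on the lists, 163 were in the table. The text names all 6 genes, the targeted genes, the genes of pathway and neighbour lists called in a comparison or otherwise up to 2 with the highest values above 0 and up to 2 with the lowest below 0, and the 3 genes most like each Th2 gene with enough counts (1 of which is not reported here), and Kif3a, Gm12214, Ccdc86, Gm13256 and Gata3un for shared exons. Marker lists are given by counts and summed levels. Alternatives were DESeq2 (1.42.0), other normalization factors, scaling to T cell markers, other filters, other libraries in the fit, a fit that is not robust, a replicate block, another offset or denominator of the ratios, and leaving out each library. Leaving out replicates 1 and 2 of CD4IKK1Δ together was added after seeing the data. Reads were not analysed here.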

Additional observations from a re-analysis of the deposited data

Results flagged for a closer look

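In the 5 libraries labelled CD4IKK1Δ, single libraries lay far from the other 4 by Dixon's criterion. Its nominal rate of about 1 of 20 groups assumes normally distributed values. Counts near the floor and ratios to few counts are not of that kind, so that this rate does not hold here. Il5 reached 1.12 CPM in replicate 5, with 25 counts against at most 1 in the others. Il13 reached 0.0993 CPM in replicate 4, which is 2 counts and thus under the floor. The other 4 libraries had 0 counts, so that any count in 1 library would have met the criterion. Replicate 1 had 2683 Gata3, 10976 Il4 and 2683 Il1rl1 counts per 10000 T cell receptor counts, values that rest on a denominator of 41 counts. The effects of the labelled genotypes against the shared CD4cre libraries differed between CD4IKK1Δ and CD4NIKΔ by a log2 value of −4.00 for Gata3 and −2.98 for Il4 in edgeR's test of the difference itself, beside 15 of 16 T cell markers that differed in the same direction.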

How the results depend on the processing

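The log2 fold changes of Gata3 kept their sign under all alternatives with edgeR or DESeq2 except scaling to T cell markers, and so did those of Il4. Between CD4IKK1Δ and CD4cre libraries, the number of Th2 genes called was 1 with DESeq2 and 0 under all others, including each leave-one-out fit (0 to 0). Between CD4NIKΔ and CD4cre libraries it was 0 with scaling to T cell markers and with all 11 libraries in the fit, and 0 to 1 when each library was left out. Between CD4IKK1Δ and CD4NIKΔ libraries it was 1 (Gata3) without replicates 1 and 2 of CD4IKK1Δ, and 1 to 2 when each library was left out. It was 1 with scaling to T cell markers, where Il1rl1 was called as higher in place of Gata3 and Il4. That scaling called 14258 of 16546 genes, 14200 of them as higher, and Il1rl1 lay below the median of all genes. Replicate numbers did not pair the libraries (correlations of deviations from −0.0889 to 0.0766). With the replicate block the number of Th2 genes called was 0, 1 and 1 (Gata3 each time) in the 3 comparisons, so that Il4 lost its call against CD4NIKΔ. Between CD4IKK1Δ and CD4cre libraries the block gave −4.13 for Gata3, −2.53 for Il4 and 1.21 for Il1rl1. Upper-quartile factors moved the median of all genes to 0.11, −0.16 and 0.30 and changed the split of all calls from 1586 higher and 1063 lower to 1398 and 1717 between CD4NIKΔ and CD4cre, and from 2444 and 3068 to 3213 and 2575 between CD4IKK1Δ and CD4NIKΔ libraries, and library size alone gave 1382 and 1438, and 2747 and 2805. All calls between CD4IKK1Δ and CD4cre libraries were 0 in the main test, 493 with DESeq2, up to 159 with other filters, 129 with all 11 libraries in the fit and up to 23 when each library was left out. Scaling to T cell markers moved the median of all genes to 4.85, −2.07 and 6.89. Relative to these medians, Gata3 stood at −4.39, 1.96 and −6.32, Il4 at −2.86, 0.87 and −3.70 and Il1rl1 at −0.86, 1.82 and −2.66, on the same side as in the main test. Without regard to the median, the genes that turned under this scaling were, between CD4IKK1Δ and CD4cre, Gata3 0.46, Il4 1.99, Il1rl1 3.99, Il2ra 1.45, Junb 0.34, Slc22a5 4.56, Irf1 1.33, Il1rl2 5.01 and Il18r1 2.08. Between CD4NIKΔ and CD4cre they were Gata3 −0.11, Il4 −1.20, Il1rl1 −0.25, Jak3 −0.20, Il2rb −0.40, Jak1 −0.40, Il2ra −0.77, Nfatc1 −0.23, Maf −0.52, Batf −0.57, Rbpj −0.90, Ccr8 −0.20 and Ifngr1 −0.30. Between CD4IKK1Δ and CD4NIKΔ they were Gata3 0.56, Il4 3.19, Il1rl1 4.22, Tyk2 4.82, Stat5b 4.80, Jak1 4.14, Il4ra 1.52, Jak3 1.69, Stat5a 2.18, Myd88 3.13, Il7r 0.35, Il2rb 0.37, Il2ra 2.20, Nfatc2 4.57, Rbpj 4.83, Notch1 3.51, Satb1 4.28, Nfil3 2.87, Maf 3.98, Ikzf1 1.05, Nfatc1 1.09, Junb 1.46, Il9r 2.62, Runx1 1.21, Socs3 1.42, Socs1 2.07, Ifngr1 1.35, Tbx21 0.084, Eomes 1.66, Rad50 4.63, Irf1 0.99 and Il18r1 1.76. Between CD4IKK1Δ and CD4cre libraries, leaving out each library gave −0.80 to 2.47 for Il1rl1, −0.48 to 0.87 for Bhlhe41 and −0.15 to 0.79 for Shroom1, and without replicates 1 and 2 of CD4IKK1Δ Il1rl1 gave 0.17. Between CD4NIKΔ and CD4cre libraries, leaving out each library gave −0.083 to 4.31 for Il1rl1. The ratio of Il1rl1 to T cell receptor counts between CD4NIKΔ and CD4cre libraries was −0.031 with an offset of 1 and −1.49 to 1.52 when each library was left out, and that of Il4 between CD4IKK1Δ and CD4cre libraries −0.045 without replicates 1 and 2 of CD4IKK1Δ. Il5, Il13 and Ptgdr2 were removed by the main filter, so that depth limits what can be said of them.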
